A study of Gallus gallus with 9 samples.

Results

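The 6 mRNAs described here are WNT7A, SEMA7A, ANK3, SPTAN1, PTPRS and CNP. They code for secreted and surface proteins, for parts of the membrane skeleton and, in CNP, for an enzyme that binds membranes. They were picked by symbol, through the identifiers that the transcript annotation of the study pairs with each symbol, and make up 6 of the 12479 mRNAs in the deposited table. All 6 passed the filter on low values that left 12472 mRNAs for testing. Each is a member of a cell morphogenesis term that the study lists for genes with more RNA at ZT20 than at ZT12 in these same libraries. The values at ZT20 and ZT12 therefore chose the members, and their difference is given below as a description without a test.

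Granulosa cells, the steroid-producing layer around the oocyte, were taken from the F1 follicle, the largest preovulatory follicle, of layer hens at 210 days of age with a known laying time. Total RNA depleted of ribosomal RNA was sequenced from 3 hens at each of 3 stages, ZT0, ZT12 and ZT20, which fell at 9:00, 21:00 and 5:00 on the clock. The study placed ZT20 at the surge of luteinizing hormone (LH) and ZT0 and ZT12 before it. No hen was treated, each hen gave 1 library, and stage and clock time cannot be told apart. Expression is given in TPM, a share of the RNA that is scaled for transcript length, so that levels can be set side by side between genes. Since TPM keeps no read depth, how many reads stand behind a value is not known.

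WNT7A is a secreted WNT ligand that signals through Frizzled receptors, and in mammals it is needed for the development of the female reproductive tract. SEMA7A is a semaphorin held on the cell surface by a lipid anchor; it guides axons and acts on integrins and on plexin C1. Ankyrin-G, the product of ANK3, ties membrane proteins to the spectrin network, and alpha-II spectrin, the product of SPTAN1, is the common non-erythroid subunit of that network. PTPRS is a receptor tyrosine phosphatase that binds heparan and chondroitin sulfate chains, and CNP encodes the cyclic nucleotide phosphodiesterase best known from myelin-forming glia, where it binds membranes and tubulin.

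WNT7A (ENSGALG00000005123, chromosome 12, 6037841 to 6069834; Gallus_gallus 6.0, as for all positions here) had the largest difference between stages among the members. Its 3 libraries held 0.956, 0.525 and 1.46 TPM at ZT0, 0.294, 0.068 and 0.0931 TPM at ZT12, and 79.1, 47.6 and 33.0 TPM at ZT20. Every ZT20 library lay above every earlier one, and every ZT12 library lay below every ZT0 one. The mean TPM at ZT20 was 351 times that at ZT12 and 54.3 times that at ZT0. These ratios rest on denominators under 1 TPM whose read support is unknown, so the log2(TPM + 1) scale used for the tests, which understates changes of low genes, is the more guarded measure. On it WNT7A was higher at ZT20 than at ZT12 by 5.47 (SE 0.298), the rise of rank 56 among the 12472 mRNAs. In the order of mean levels it stood at percentile 14.6 at ZT0, 4.61 at ZT12 and 82.2 at ZT20.

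SEMA7A (ENSGALG00000001412, chromosome 10, 2464702 to 2487049) was abundant at all stages. It had 59.3, 68.7 and 53.6 TPM at ZT0, 43.3, 53.8 and 51.5 TPM at ZT12, and 148, 160 and 64.6 TPM at ZT20. Replicates 1 and 2 of ZT20 stood well above the rest, whereas replicate 3 lay within the ZT0 range. The mean at ZT20 was 2.51 times that at ZT12, a difference in log2(TPM + 1) of 1.21 (SE 0.293). Without ZT20 replicate 3 the difference was 1.62, and without ZT20 replicate 2 it was 0.97.

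The membrane skeleton genes differed in how far they stood above ZT0. SPTAN1 (ENSGALG00000004719, chromosome 17, 5677492 to 5723340) had 127, 165 and 164 TPM at ZT0, 134, 119 and 108 TPM at ZT12, and 338, 327 and 314 TPM at ZT20. The ZT20 libraries agreed closely and stood apart from both earlier stages, whose libraries overlapped. The difference between ZT20 and ZT12 was 1.44 (SE 0.137) in log2(TPM + 1), a mean ratio of 2.72. ANK3 (ENSGALG00000003135, chromosome 6, 8746641 to 9088407) had 3.58, 2.34 and 5.73 TPM at ZT0, 1.73, 1.58 and 0.889 TPM at ZT12, and 3.59 to 4.01 TPM at ZT20. Thus ANK3 was low at ZT12 alone, and its ZT20 libraries lay inside the ZT0 range. Its difference between ZT20 and ZT12 was 1.01 (SE 0.251), just past the fold change threshold of 1 on the log2 scale, and its difference between ZT20 and ZT0 was 0.03 (SE 0.251). The sign of this last value turned in 2 of 18 alternative settings, several of which leave the estimate unchanged by construction.

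PTPRS and CNP were low before ZT20. PTPRS (ENSGALG00000004048, chromosome 28, 4626074 to 4748768) had 0.783, 1.41 and 1.35 TPM at ZT0, 2.32, 1.82 and 2.37 TPM at ZT12, and 11.4, 16.4 and 7.56 TPM at ZT20. It was the member whose libraries stepped up without overlap at both intervals, and its difference between ZT20 and ZT12 was 1.96 (SE 0.252). CNP (ENSGALG00000003457, chromosome 27, 5156868 to 5161795) had 0.636, 0.95 and 1.40 TPM at ZT0, 0.861, 1.66 and 1.34 TPM at ZT12, and 6.76, 5.69 and 2.17 TPM at ZT20. The ZT0 and ZT12 libraries of CNP overlapped, and the lowest ZT20 library exceeded the highest ZT12 library by little. Its difference between ZT20 and ZT12 was 1.28 (SE 0.315).

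**Figure D1:**
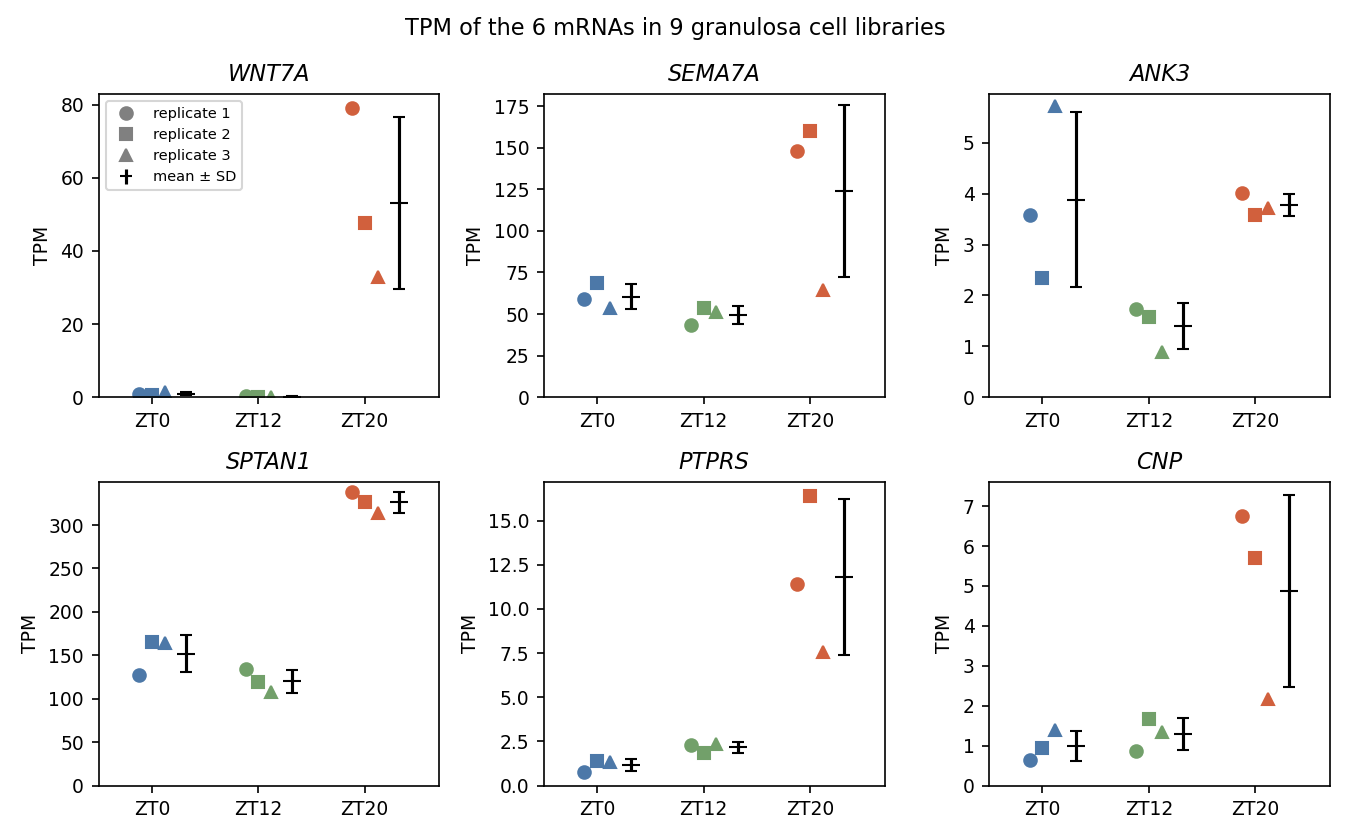
TPM (vertical axes, linear, from 0) of the 6 mRNAs in the 3 libraries of each stage (horizontal axes), with 1 marker shape for each replicate number and the mean ± SD beside the points (n = 3). At ZT20 WNT7A reached 33.0 to 79.1 TPM, while ANK3 at ZT20, with 3.59 to 4.01 TPM, lay inside its ZT0 range.

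All 6 members had their ZT20 libraries above their ZT12 libraries without overlap, where 34.6% of all tested mRNAs did so, and all 6 passed the call of a log2 difference over 1 with an adjusted p under 0.05, which 16.0% of all mRNAs passed upward. Since this contrast chose them, nothing is read from these counts. Their median difference was 1.36, beside 0.08 over all mRNAs.

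The comparison of ZT12 with ZT0, before the surge, is the one that did not choose the members, although it shares the ZT12 libraries with the one that did. None of the 6 mRNAs was called in it (limma, Benjamini-Hochberg adjusted over 12472 mRNAs), where 3.86% of all mRNAs were called, and 3 of 6 had an unadjusted p under 0.05, as 36.5% of all mRNAs did, and 1 of 6 an adjusted p under 0.05 at any fold change, as 16.7% did. ANK3 was lower by 0.98 (SE 0.251, limma adjusted p = 0.0314), a mean of 1.40 ± 0.448 TPM at ZT12 and 3.88 ± 1.72 TPM at ZT0 (SD, n = 3 each), and missed the call by its fold change only. Low ZT12 values favoured the choice of a member, so they also favour such a fall from ZT0. The p-values of falling members are not free of this choice. Over 19 alternative settings the adjusted p of ANK3 ran from 0.0288 to 0.312. WNT7A differed by -0.76 (SE 0.298, limma adjusted p = 0.0976), and with a pseudocount of 0.1, which gives low values more weight, by -2.11 (adjusted p = 0.0222). With read GC as covariate the WNT7A difference was -0.17 (adjusted p = 0.819). PTPRS differed by 0.55 (SE 0.252, limma adjusted p = 0.146). Its sign held in all 19 settings, as did the signs of WNT7A, ANK3 and CNP. The other filters, the fit without trend, the replicate block, the fit of the compared stages and the dropped threshold leave these estimates unchanged. The fits without a ZT20 library do so too, and no sign could turn in any of those settings.

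The other members moved less before the surge. SPTAN1 differed by -0.33 between ZT12 and ZT0 (SE 0.137, limma adjusted p = 0.111), SEMA7A by -0.28 (SE 0.293, adjusted p = 0.512) and CNP by 0.20 (SE 0.315, adjusted p = 0.674). The rounded estimate was no longer below 0 in 3 of 19 settings for SEMA7A and in 1 for SPTAN1. For SEMA7A it was 0.05 with median ratio scaling, 0.00 with quantile normalization and 0.34 with read GC as covariate. For SPTAN1 it was 0.01 with median ratio scaling. These were counted over the same settings, many of which cannot turn a sign. The median over the members was -0.31, close to the median of -0.28 over all mRNAs, and single differences are to be read against that value. In 3 members, WNT7A, ANK3 and PTPRS, the libraries of both stages did not overlap, as for 45.2% of all mRNAs. The GC content of the reads also separated the ZT12 from the ZT0 libraries, so that GC and stage cannot be told apart in this comparison.

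Across the whole span the members parted. At ZT20, 4 of the 6 mRNAs, WNT7A, SPTAN1, PTPRS and CNP, lay above ZT0 without overlap, where 23.2% of all mRNAs did, and the same 4 passed the call, which 11.6% passed upward. Without ZT0 replicate 1 SPTAN1 (0.98) was not called, and SEMA7A was called with median ratio scaling (1.17), with read GC as covariate (1.13), without ZT20 replicate 3 (1.34) or without ZT0 replicate 2 (1.02), so that 3 to 5 members were called over the settings. The ZT20 libraries are the ones that chose the members, so these values carry no test either. The difference between ZT20 and ZT0 was 4.71 (SE 0.298) for WNT7A, 2.51 (SE 0.252) for PTPRS, 1.48 (SE 0.315) for CNP and 1.11 (SE 0.137) for SPTAN1. SEMA7A had 124 ± 52.0 TPM at ZT20 and 60.5 ± 7.60 TPM at ZT0 (SD, n = 3 each), a difference of 0.93 (SE 0.293) with overlapping libraries. Hence ANK3 had a low ZT12 with ZT20 inside the ZT0 range. WNT7A, SPTAN1, CNP and SEMA7A had the highest mean at ZT20 with no step up of the libraries before it. In PTPRS the libraries stepped up at both intervals, but the step from ZT0 to ZT12 was not called. Libraries of these 2 stages did not overlap for 45.2% of all mRNAs, a share that pools rises and falls. The share for rises alone is not given here, and the PTPRS rise had rank 303 among the 12472 mRNAs. Since the step was not called, it is not read as a trait of PTPRS.

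**Figure D2:**
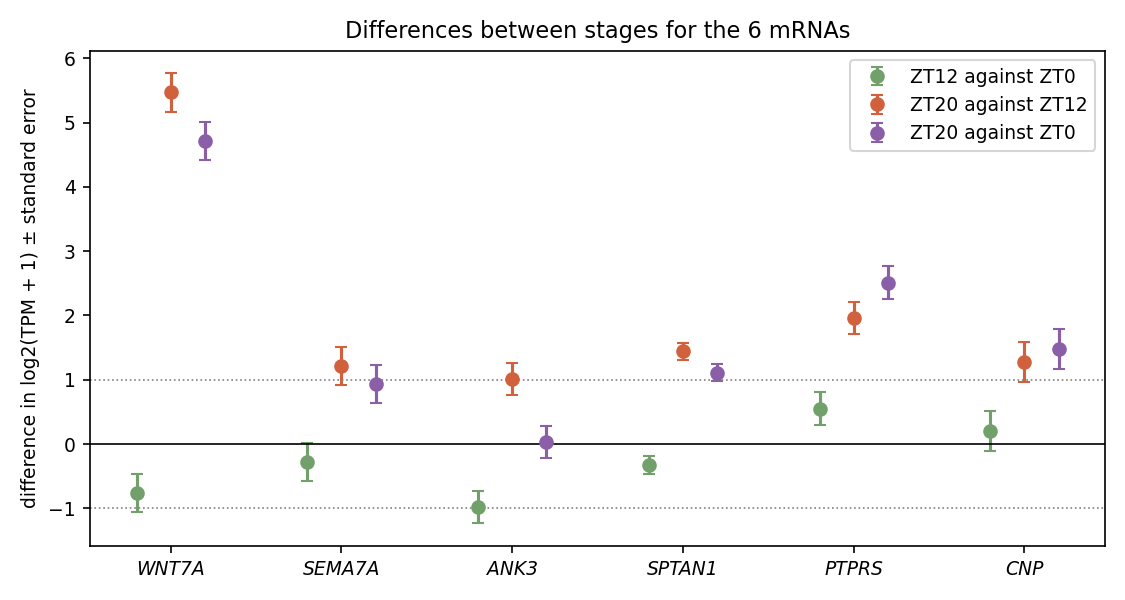
Differences between stages in log2(TPM + 1) (vertical axis) for the 6 mRNAs (horizontal axis), each later stage minus the earlier one. Points are limma estimates from all 9 libraries, bars are ± 1 standard error, and dotted lines mark the fold change threshold of 1 in either direction. The ZT12 minus ZT0 points lie between -0.98 and 0.55, whereas the ZT20 minus ZT12 points lie between 1.01 and 5.47.

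Set side by side on the length-scaled TPM level, SPTAN1 and SEMA7A led at every stage. SPTAN1 averaged 152, 120 and 326 TPM at ZT0, ZT12 and ZT20, and placed at percentile 97.0 of all tested mRNAs at ZT20. At ZT20 the mean levels ran from SPTAN1 through SEMA7A, WNT7A, PTPRS and CNP to ANK3. The libraries of SEMA7A and WNT7A overlapped in level, as did those of CNP and ANK3, and all other neighbours in this order were apart. At ZT0 the libraries of PTPRS, CNP and WNT7A overlapped below those of ANK3. The summed TPM of the 6 mRNAs averaged 220 (ZT0), 175 (ZT12) and 524 (ZT20), and WNT7A made up 0.453%, 0.0854% and 9.91% of it on average.

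The spread between hens at ZT20 split the members. The coefficient of variation was 3.62% for SPTAN1 and 5.63% for ANK3, and between 37.6% and 49.3% for WNT7A, SEMA7A, PTPRS and CNP. ZT20 replicate 3 was the lowest ZT20 library for 5 members, all except ANK3, whereas it was the lowest for 33.0% of the 2001 mRNAs called higher at ZT20 than at ZT12. The read GC content of this library lay within the range of the ZT12 libraries. The highest ZT20 library was replicate 1 for WNT7A, ANK3, SPTAN1 and CNP and replicate 2 for SEMA7A and PTPRS. With the GC content of each library's reads as a covariate, the differences between ZT20 and ZT12 were 0.79 for SEMA7A, 0.85 for ANK3 and 0.85 for CNP, under the threshold, and 5.08 for WNT7A, 1.66 for PTPRS and 1.35 for SPTAN1. The part of GC content in the member values beyond this fit was not tested.

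Markers of other cells were read beside these values, for the few whose symbol could be paired. Of 10 granulosa markers 3 were paired: STAR, the cholesterol carrier of steroid synthesis, had 10500 to 16500 TPM at ZT20 and 1400 to 1740 TPM at ZT12, while NR5A1 and NR5A2 were below their ZT12 libraries at ZT20. The 2 of 8 paired theca and fibroblast markers summed to 2.57 to 5.34 TPM at ZT20 and 0.28 to 0.382 TPM at ZT12, a sum carried at ZT20 by FBN1, a microfibril protein, which rose by 1.98 (limma adjusted p = 5.27e-05), with 2.55 to 5.32 TPM at ZT20 and 0.132 to 0.363 TPM at ZT12, while MYOCD was at or under 0.0249 TPM at ZT20. The 2 of 6 paired endothelial markers summed to 7.04 to 7.94 TPM at ZT20 and 26.9 to 34.7 TPM at ZT12, and the 4 of 6 leukocyte markers to 20.1 to 32.7 TPM at ZT20 and 35.1 to 137 TPM at ZT12. CD74 made up nearly all of the leukocyte sum and fell by 1.24 (limma adjusted p = 0.0366). The low markers PTPRC, DOCK2 and BTK had means 2.26, 3.87 and 1.94 times as high at ZT20 as at ZT12. PTPRC and DOCK2 rose without overlap (adjusted p = 0.0412 and 0.00724) and missed the call by their fold change in log2(TPM + 1) only. BTK overlapped (adjusted p = 0.111). The 4 of 8 neural and glial markers summed to 37.9 to 47.6 TPM at ZT20 and 116 to 133 TPM at ZT12. Against ZT12 the endothelial and neural sums were thus lower at ZT20, and the leukocyte sum was lower through CD74. The granulosa sum was higher through STAR alone, and the theca sum through FBN1 alone. At ZT0 the theca sum was 1.12 to 4.38 TPM, which overlapped ZT20. Within the granulosa, theca and leukocyte lists the paired markers thus gave no common direction between ZT12 and ZT20. Both endothelial markers fell, CLDN5 by 1.55 and S1PR1 by 2.23, and both were called. The 4 neural and glial markers were all lower at ZT20, NEFL by 0.95, MAP2 by 1.67, GPR37L1 by 0.73 and ASTN1 by 0.28. Of these only MAP2 was called, and the libraries of ASTN1 overlapped. NEFL and GPR37L1 fell without overlap (limma adjusted p = 0.00316 and 0.03) and missed the call by their fold change only. MAP2 made up most of the neural sum, with 99.0 to 115 TPM at ZT12. No red blood cell marker was paired. None of the paired markers was at 0 in every library. Their part in the member values was not tested, and fewer cells of a type cannot be told apart from less RNA per cell.

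The other genes of the WNT pathway did not share one direction. Of a list of 57 genes 11 could be paired and tested, and at ZT20 against ZT12 3 rose, 2 fell and 6 were not called, with a median of 0.43 beside 0.08 over all mRNAs, of which 16.0% were called higher and 11.7% lower. The secreted WNT antagonist FRZB, which binds WNT ligands outside the cell, had 737, 850 and 876 TPM at ZT20 and 179, 59.6 and 141 TPM at ZT12, and rose by 2.82 (limma adjusted p = 7.13e-05). SFRP1, another secreted WNT antagonist, went the other way at a low level, with 0.17 to 0.485 TPM at ZT20 and 0.778 to 0.973 TPM at ZT12. Its difference was -0.44 (limma adjusted p = 0.0756) and was not called. NOTUM, an enzyme that removes the lipid WNT ligands need, rose by 1.13 (adjusted p = 0.000526) at a low level of 1.07 to 2.15 TPM at ZT20 and 0.0454 to 0.348 TPM at ZT12, a call lost in 2 of 19 settings. FBXW11, a subunit of the ligase that marks beta-catenin for breakdown, rose by 1.49 (adjusted p = 0.000592). CXXC5, a Dishevelled-binding inhibitor, fell by 2.32 and PYGO1, a nuclear partner of beta-catenin, fell by 1.97. ADGRA2, a receptor that in mice and fish acts with RECK for WNT7A signals in brain vessels, differed by -0.36 (adjusted p = 0.0722). FRZB, like WNT7A, had its lowest libraries at ZT12, where it fell by 1.46 against ZT0 (limma adjusted p = 0.0263). Frizzled receptors of WNT7A were not analysed here.

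In the list of semaphorins and guidance receptors, 13 of 43 genes could be tested. At ZT20 against ZT12 3 rose, 3 fell and 7 were not called, with a median of -0.34. Over all mRNAs the median was 0.08, and 16.0% were called higher and 11.7% lower. The transmembrane semaphorin SEMA6A went the other way from SEMA7A. SEMA6A had 11.0, 10.4 and 8.32 TPM at ZT20 and 69.1, 65.4 and 71.2 TPM at ZT12, and fell by 2.68 (limma adjusted p = 1.37e-07). PLXNA2, a plexin that binds SEMA6A, fell by 1.89 (adjusted p = 8.54e-05) to 6.01 to 8.11 TPM at ZT20, against 27.8 to 30.3 TPM at ZT12. EFNA5, an ephrin, fell by 1.42. DRAXIN, a secreted guidance protein that also acts as a WNT antagonist, had 120, 65.5 and 60.8 TPM at ZT20 and 0.604, 0.511 and 1.92 TPM at ZT12, and rose by 5.37 (adjusted p = 7.92e-06). Its range at ZT20 overlapped that of WNT7A, and like WNT7A it was lowest at ZT12. NTNG2, a netrin-G held by a lipid anchor as SEMA7A is, rose by 1.85 and LINGO1, a co-receptor in axon growth, rose by 1.26. The integrin subunit ITGAV had 30.4 to 40.2 TPM at ZT20 and 17.5 to 22.5 TPM at ZT12, without overlap. It differed by 0.81 (limma adjusted p = 0.00219) and missed the call by its fold change only. 

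The partners of ANK3 and SPTAN1 were read next. Of 25 genes of the spectrin and ankyrin skeleton 10 could be tested, and none of the 10 was itself a spectrin or an ankyrin. The counts therefore do not cover the other spectrins and ankyrins. At ZT20 against ZT12 limma called 0 higher, 3 lower and 7 in neither direction. Their median was -0.37, and over all mRNAs 16.0% were called higher and 11.7% lower. The 1 gene above 0 with an unadjusted p under 0.05 was TMOD1, and with a pseudocount of 0.1 the list had 1 gene called higher. MPP1, a scaffold that joins protein 4.1 to the membrane, had 3.12, 1.97 and 2.84 TPM at ZT20 and 12, 13.0 and 28.1 TPM at ZT12, and fell by 2.27 (limma adjusted p = 8.47e-05). EPB41L4A, of the protein 4.1 family, fell by 2.09, and TMOD2, which caps actin filaments, fell by 1.42 (adjusted p = 0.00627). EPB41, which strengthens the binding of spectrin to actin, differed by -0.15 and was not called. The related caps TMOD1 and TMOD3 differed by 0.83 and -0.92 (limma adjusted p = 9.59e-05 and 0.00136), neither past the fold change threshold. TMOD1 had 0.909 to 1.12 TPM at ZT20 and 0.11 to 0.167 TPM at ZT12, a mean ratio of 7.64 without overlap. At such low levels the log2(TPM + 1) scale understates a change.

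PTPRS binds sulfated sugar chains, which several enzymes build and trim. Of 35 genes of receptor phosphatases and proteoglycans 9 could be tested, of which 2 rose, 2 fell and 5 were not called, with a median of 0.07. Over all mRNAs the median was 0.08, and 16.0% were called higher and 11.7% lower. HS6ST1, which adds sulfate to heparan sulfate, had 179, 244 and 256 TPM at ZT20 and 0.845, 2.99 and 0.59 TPM at ZT12, and rose by 6.63 (limma adjusted p = 1.68e-06), more than WNT7A. NDST1, which acts earlier on the same chains, had 7.65, 7.59 and 7.29 TPM at ZT20 and 56.3, 56.8 and 95.8 TPM at ZT12, and fell by 3.01 (adjusted p = 1.16e-06). CSGALNACT2, which starts chondroitin sulfate chains, fell by 1.39. SULF2, which removes sulfate from heparan sulfate at the cell surface, rose by 1.04, a call lost in 6 of 19 settings. PTPRC, the receptor phosphatase of leukocytes, differed by 0.37 and was not called.

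**Figure D3:**
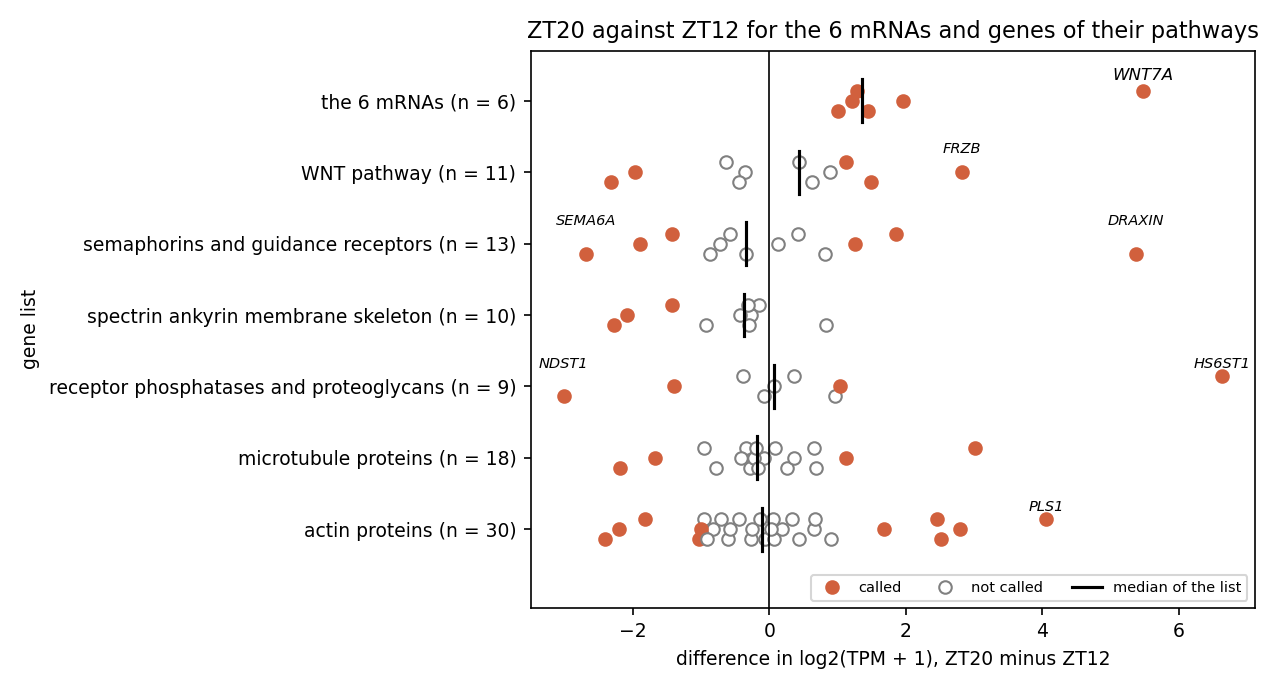
Differences in log2(TPM + 1), ZT20 minus ZT12 (horizontal axis), for the 6 mRNAs, which were chosen on this contrast, and for each paired gene of 6 lists (vertical axis). Filled circles were called, open circles were not, and black lines are medians. The spectrin and ankyrin list, in which no spectrin or ankyrin could be tested, has 3 filled circles, all below 0. The other lists have filled circles on both sides.

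**Figure D4:**
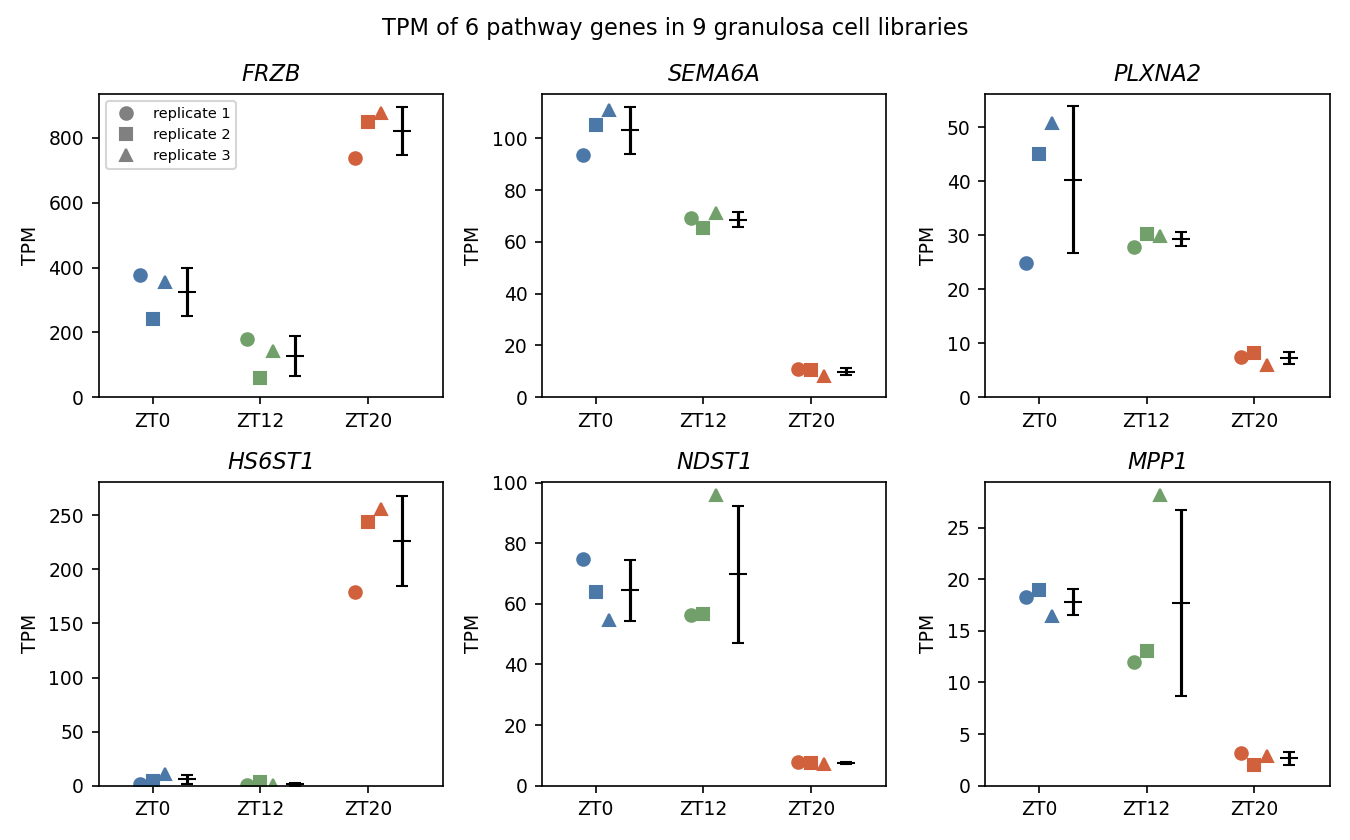
TPM (vertical axes, linear, from 0) of 6 genes from the pathway lists in the 3 libraries of each stage (horizontal axes), with the mean ± SD beside the points (n = 3). FRZB and HS6ST1 had their highest libraries at ZT20, and SEMA6A, PLXNA2, NDST1 and MPP1 their lowest.

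The mRNAs with a profile most like each member were sought among 1697 mRNAs with a symbol, by Pearson's r of log2(TPM + 1) over the 9 libraries, as a description. The points share stages and libraries, so r also holds what is common to a stage. It compares the shape of a profile and not the size of a change. WNT7A was most like ACTR5 (r = 0.995), an actin-related subunit of the INO80 chromatin remodeller, then RAB43 and RUNDC1. SPTAN1 was most like TTYH3, ULK1 and PPP2R2A, each with r = 0.989, of which ULK1 is a kinase that starts autophagy. The sizes of change differed widely. The mean at ZT20 over that at ZT12 was 2.92 for ACTR5 beside 351 for WNT7A, and 102 for TTYH3 beside 2.72 for SPTAN1. ANK3 was most like AP1G1 (r = 0.980), a subunit of a clathrin adaptor, and AP1G1 also had its lowest libraries at ZT12, at 45.7 to 55.6 TPM, against 65.1 to 79.9 TPM at ZT0. SEMA7A was most like SLC25A14 (r = 0.972), a mitochondrial carrier whose ZT20 libraries held 21.5 to 60.8 TPM, with replicate 3 the lowest as for SEMA7A. PTPRS and CNP had 2 of 3 such genes in common, NEURL1B and TSPAN15, with r of 0.969 and 0.964 for PTPRS and 0.938 and 0.932 for CNP. NEURL1B, a ubiquitin ligase of Notch signalling, had 10.7, 12.4 and 4.32 TPM at ZT20 and at most 0.133 TPM at ZT12.

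The nearest mRNA with a position here was looked up for each member. PTPDC1, 38.5 kb from WNT7A, had 22.7, 14.7 and 20.5 TPM at ZT20 and 4.42, 4.02 and 3.37 TPM at ZT12, and rose by 2.02 (limma adjusted p = 8.82e-06). Its ZT0 libraries held 4.49 to 4.67 TPM, so its ZT12 libraries also lay below ZT0 without overlap, as those of WNT7A did. For PTPDC1 this difference was -0.18 (limma adjusted p = 0.497) and was not called. WDR34 meets SPTAN1 at 1 shared end base and had 1.83, 2.28 and 1.97 TPM at ZT20 and 1.24, 1.64 and 1.33 TPM at ZT12, a difference of 0.33. UBL7, 10.6 kb from SEMA7A, differed by -0.21, CDK1, 3.76 kb from ANK3, by 0.76, FEM1A, 135 kb from PTPRS, by 0.15, and ENSGALG00000003464, 219 bases from CNP, by -0.12. Thus 1 of 6 nearest neighbours was called higher, near the 16.0% of all mRNAs, and none lower. CDK1 (limma adjusted p = 0.0292) missed the call by its fold change only. The ZT20 libraries of PTPDC1, WDR34 and CDK1 lay above their ZT12 libraries without overlap, where 34.6% of all mRNAs did so. Of lncRNAs with a position here, G5553 lay 82.9 kb from SPTAN1, with deposited log2 values of 3.08, 3.23 and 3.10 at ZT20 and 3.14, 2.48 and 2.48 at ZT12. These overlapped, and no other member had a positioned lncRNA within 100 kb.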

How the data were processed

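RNA of F1 granulosa cells from 9 hens was analysed from deposited values, with stage and replicate taken from the sample labels. The authors aligned reads with STAR 2.6.0c to Gallus_gallus 6.0 (Ensembl), assembled lncRNAs with Cufflinks (2.2.1 in the submitters' processing notes), quantified TPM with Kallisto and deposited log2 values. No transform is named for the tables. The mRNA values, which start at 0, were read as log2(TPM + 1), and lncRNA values, which start at 1, are printed as deposited. Tests planned for TPM were run on the TPM recovered from these log2 values.

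Only mRNAs that exceeded 0.1 TPM in 1 or more libraries entered the test. Stage means were compared on log2(TPM + 1) by limma (version 3.58.1, R 4.3.3) with its trended empirical Bayes option, in 1 model over the 9 libraries that left 6 degrees of freedom. Called mRNAs had an absolute log2 difference above 1 and a Benjamini-Hochberg adjusted p under 0.05 over all mRNAs tested. The fit was tested on simulated data. The count test of the authors, DESeq2, was not run because no counts were used.

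Symbols and positions come from the annotation of the study as it was read here, in which 1824 mRNAs had a symbol and 1998 a position. The study describes this annotation as covering all transcripts it identified. A gene that could not be paired here is therefore not thereby missing from the study, and a nearer mRNA without a position here may exist. The members and the gene lists were chosen with earlier results of these data known. Genes named are the members, for each the 3 mRNAs with the highest r among those above 1 TPM in at least 3 libraries, from each list up to 3 called genes each way with the largest change and no overlap, nearest neighbours, and marker lists. Other list genes named (ADGRA2, SFRP1, ITGAV, EPB41, TMOD1, TMOD3, PTPRC, CYFIP2, NCKAP1, MYO18A and MAPT) were chosen after their values were seen. Alternatives were a pseudocount of 0.1, other filters, median ratio and quantile scaling, a fit without trend, a fit of the compared stages only, no fold change threshold, a replicate block, read GC content as covariate (values from the sequencing summary of the study), and each library left out in turn. Settings that change only the filter, the trend, the threshold, the replicate block or a stage outside the comparison leave an estimate as it is.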

Additional observations from a re-analysis of the deposited data

How the results depend on the processing

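For ZT12 against ZT0, 481 mRNAs were called, and 785 with a pseudocount of 0.1, 203 with median ratio scaling, 215 with quantile normalization, 4 with read GC as covariate, 2089 without a fold change threshold and 196 to 699 with 1 library left out (196 without ZT0 replicate 3, 222 without ZT12 replicate 2 and 282 without ZT12 replicate 3). Among the members 0 were called, 2 (WNT7A and ANK3) with a pseudocount of 0.1, 1 (ANK3) without the threshold, and 0 to 1 with 1 library left out, ANK3 being called without ZT0 replicate 2 (-1.23) or ZT12 replicate 1 (-1.09). For ZT20 against ZT12 the 6 member calls became 3 with read GC as covariate, and ANK3 fell to 0.97 with median ratio scaling, 0.93 with quantile normalization, 0.85 without ZT12 replicate 3 and 0.98 without ZT20 replicate 1, and SEMA7A to 0.95 with quantile normalization and 0.97 without ZT20 replicate 2. In this comparison, settings with the fold change threshold called 2 to 4 WNT pathway genes higher and 2 to 3 lower. Guidance genes had 3 called higher and 3 to 5 lower, and the spectrin and ankyrin list 0 to 1 higher and 3 to 4 lower. Phosphatase and proteoglycan genes had 1 to 3 higher and 2 lower. Microtubule genes had 1 to 2 higher and 2 to 3 lower, and actin genes 5 to 6 higher and 3 to 9 lower. No list gene named by rule turned its sign. Without the threshold 6638 mRNAs were called for ZT20 against ZT12 and 6676 for ZT20 against ZT0. The cause was not tested, except that dropping a threshold adds calls by construction. Each hen gave 1 library, so the replicate numbers do not pair hens. The deviations of same-numbered libraries from their stage means had r from -0.187 to 0.0784. Whether same-numbered libraries shared a batch is not known. With a replicate block 388, 3466 and 3512 mRNAs were called, beside 481, 3465 and 3512 without, and 0, 6 and 4 members as before. No member difference with a call turned its sign. Read depth per value is unknown.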

Other observations

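The wider sets of actin and microtubule genes, which carry out changes of cell shape, also held calls in both directions at ZT20 against ZT12. Over all mRNAs 16.0% were called higher and 11.7% lower, so nothing about these lists is read from the counts. Of 34 actin genes 30 could be tested, of which 5 rose and 5 fell, with a median of -0.10 beside 0.08 over all mRNAs. PLS1, a bundler of actin filaments, had 47.6, 31.1 and 39.2 TPM at ZT20 and 1.54, 1.30 and 1.31 TPM at ZT12, and rose by 4.06 (limma adjusted p = 4.06e-07). MYO1D, a membrane motor, rose by 2.79 and CTNNA3, an alpha-catenin of adherens junctions, rose by 2.52, with 4.42 to 5.48 TPM at ZT20 and 0 to 0.0405 TPM at ZT12. The other 2 that rose were CYFIP2 (2.46) and NCKAP1 (1.68), both subunits of the WAVE complex that starts branched actin. VCL, the adhesion protein vinculin, fell by 2.2, the motor MYO1E fell by 2.40 and CORO2A, a coronin, fell by 1.82.

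Of 24 microtubule genes 18 could be tested, of which 2 rose and 2 fell, with a median of -0.18. The shares over all mRNAs were 16.0% called higher and 11.7% called lower. TPPP3, a protein that promotes tubulin assembly, rose by 3.01 (limma adjusted p = 4.72e-05), and the tubulin-folding factor TBCA rose by 1.13, a call lost in 3 of 19 settings. MACF1, which links actin to microtubules, fell by 2.18, and MAP2, a neuronal microtubule protein that is also in the neural marker list, had 29.7 to 37.5 TPM at ZT20 and 99.0 to 115 TPM at ZT12 and fell by 1.67. In the pathway lists CXXC5 was called higher at ZT12 than at ZT0, by 1.17. FRZB, DRAXIN, PLS1, MYO18A and MAPT were called lower, by 1.46, 2.30, 1.47, 1.27 and 1.41. The limma adjusted p of these calls lay between 0.0104 and 0.0381. Over all mRNAs 3.86% were called in this comparison, 481 mRNAs, which became 4 with read GC as covariate. Whether these list calls held in other settings is not given here.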
